A study of Mus musculus with 15 samples.

Results

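The 7 genes described here are the transcription factors known as the stem cell heptad, Gata2, Runx1, Tal1, Lmo2, Lyl1, Erg and Fli1. They were chosen by name, with earlier results of these data known. Every probe set whose single gene symbol was one of the 7 was taken, which gave 15 of the 45141 probe sets on the arrays. Gata2, Erg and Fli1 had 2 probe sets each, Runx1 had 6, and Tal1, Lmo2 and Lyl1 had 1 each. For each gene the brightest probe set by its mean over all arrays was tested, as for all 17097 genes.

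In blood stem and progenitor cells the 7 factors bind many of the same enhancers and form a densely connected circuit in which members bind each other's regulatory regions. Gata2 is a zinc finger factor needed for the upkeep of stem cells, Runx1 is the DNA-binding subunit of core binding factor, and Tal1 and Lyl1 are basic helix-loop-helix proteins that pair with E proteins. Lmo2 has no DNA contact of its own and bridges Tal1 or Lyl1 to GATA factors through Ldb1, while Erg and Fli1 are closely related ETS factors. Several of them also act outside stem cells, Gata2 in mast cells, Tal1, Gata2, Runx1 and Fli1 in megakaryocytes, and Tal1, Erg and Fli1 in endothelium.

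The study measured LSK cells of bone marrow, which lack lineage markers, carry Sca-1 and Kit and include the blood stem cells and early multipotent progenitors, on 15 microarrays in 5 groups of 3. Marrow of female C57Bl/6 donors treated with 5-fluorouracil was transduced with an MSCV retroviral vector and transplanted into lethally irradiated mice, and marked LSK cells were sorted later without culture. The HOXB4 groups, at 6, 12 and 20 weeks, carried HOXB4 with YFP as the marker, and the GFP groups, at 12 and 20 weeks, carried GFP alone, so that the marker protein differs between vectors along with HOXB4. Both vectors act in every cell that carries them, from the viral promoter, and every group shares the 5-fluorouracil, the transduction and the transplantation. The times are those of the sample titles (the last is 24 weeks in the series text), and a GFP group at 6 weeks is not analysed here. The labels do not say whether the arrays of a group came from separate mice or pools, so the p-values measure the spread between arrays, which may be technical.

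All values are log2 signals as the authors deposited them, and a difference of 1 means that one signal is 2-fold the other. Called means an adjusted p under 0.05 in a limma model over all 15 arrays with Benjamini-Hochberg adjustment over 17097 genes. Arrays of a group correlated at 0.9925 or more in both 12-week groups, at 0.9828 to 0.9931 in GFP at 20 weeks, at 0.9804 to 0.9841 in HOXB4 at 20 weeks and at 0.9686 to 0.98 in HOXB4 at 6 weeks, where the median gene had the widest SD, 0.203. Kit, which the sort used, had mean log2 signals between 8.07 and 8.70 in the 5 groups, and Ly6a, which encodes Sca-1, is not analysed here. Of the other markers of stem and progenitor cells on the LSK list, Cd34 lay between 9.14 and 10.15, Flt3 between 8.03 and 9.45, Slamf1 between 4.97 and 7.28, Procr between 5.23 and 6.47 and the pan-leukocyte Ptprc between 9.71 and 10.26.

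The promoters of the 3 genes whose call at 20 weeks is described below are shown because these genes are themselves known targets of GATA, ETS and E-box binding factors. Each is the 250 bases before an annotated start in RefSeq on GRCm38.p6, read 5′ to 3′ on the strand of the gene, with motif matches in capitals. RefSeq windows were matched for 5 of the 7 genes, with 10 starts between them. Motifs were searched on both strands as AGATAA for GATA factors, TGTGGT for RUNX, CANNTG for E-boxes, CCGGAA and AGGAAG for ETS factors and TGATTNAT for HOX with PBX, and no matches overlapped in these windows.
Tal1, chr4:115056176-115056425, plus strand: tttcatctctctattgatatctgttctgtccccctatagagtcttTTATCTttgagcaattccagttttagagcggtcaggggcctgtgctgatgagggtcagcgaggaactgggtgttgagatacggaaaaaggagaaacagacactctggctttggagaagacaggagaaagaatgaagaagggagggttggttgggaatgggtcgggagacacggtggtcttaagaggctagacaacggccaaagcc
Runx1, chr16:92826075-92826324, minus strand: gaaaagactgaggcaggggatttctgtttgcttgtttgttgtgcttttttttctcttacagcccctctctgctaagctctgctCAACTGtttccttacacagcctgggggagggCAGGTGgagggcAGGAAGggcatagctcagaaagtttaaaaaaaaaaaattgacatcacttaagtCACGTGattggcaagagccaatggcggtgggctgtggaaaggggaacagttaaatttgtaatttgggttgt
Gata2, chr6:88193641-88193890, plus strand: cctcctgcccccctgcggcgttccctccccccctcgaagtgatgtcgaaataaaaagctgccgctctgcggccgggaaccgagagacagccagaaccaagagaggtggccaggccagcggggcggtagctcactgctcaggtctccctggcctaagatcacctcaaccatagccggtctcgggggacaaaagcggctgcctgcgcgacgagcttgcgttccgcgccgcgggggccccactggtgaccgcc

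The Tal1 window, at the first of 2 annotated starts, held 1 match to AGATAA, read on the opposite strand as TTATCT, a motif present in 9.99% of 32851 windows of the same length. The Runx1 window, at the first of 2 annotated starts, held 3 matches to CANNTG, found in 66.2% of windows, and 1 to AGGAAG, found in 29.5%. The window at the second Runx1 start held 1 match to CCGGAA, which 12% of windows hold. The Gata2 window contained none of the 6 motifs, and none was found at the second start of Gata2 or of Tal1. The Lyl1 window held 1 match to CANNTG and 2 to CCGGAA. Of the 3 Erg starts, 1 held 1 AGATAA, 2 CANNTG and 1 AGGAAG match and the others none. No member window matched TGTGGT or TGATTNAT, which 14% and 2.82% of all windows hold. A match is a stretch of letters and no binding site, and the arrays carry no measure of binding.

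HOXB4 LSK cells had more Tal1 and Gata2 RNA than GFP cells at 20 weeks. Runx1 was called higher on its tested probe set alone, and Lmo2, Lyl1 and Fli1 were not called different. Tal1 was 2.69-fold higher, Gata2 2.54-fold and Runx1 1.49-fold. Erg was 1.95-fold higher and missed the threshold on its tested probe set, while its other probe set was called higher. With the probe sets of a gene averaged, Erg was called, at 0.94 (adjusted p 0.0140 in limma), and Runx1 was not, at 0.25 (0.109). On the tested probe sets 3 of 7 members were called higher and none lower. Of all genes 8.95% were called, 3.77% higher and 5.18% lower. The median difference of the 7 was 0.58, beside 0.02 over all genes. That median is the value of Runx1 on its tested probe set, and Lmo2, Lyl1 and Fli1 lay below 0.

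Tal1 encodes a helix-loop-helix factor required to form blood from mesoderm and later for erythroid and megakaryocytic maturation. At 20 weeks its log2 signal was 5.85, 6.08 and 6.26 on the GFP arrays and 6.74, 8.02 and 7.70 on the HOXB4 arrays. All HOXB4 arrays lay above all GFP arrays, with replicate 1 of HOXB4 well below its companions. The difference was 1.42 ± 0.26 (SE, n = 3 per group), with a 95% interval of 0.86 to 1.99 and an adjusted p of 0.00313 in limma. At 12 weeks the signals were 7.94, 7.33 and 7.47 with GFP and 7.75, 7.64 and 7.84 with HOXB4, which overlapped, and at 6 weeks with HOXB4 they were 8.03, 7.47 and 7.59. The GFP arrays at 20 weeks were thus the low ones, under all 12 other arrays.

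Gata2 had log2 signals of 8.76, 9.07 and 8.54 with GFP and 9.35, 10.75 and 10.31 with HOXB4 at 20 weeks. The groups did not overlap, and replicate 1 was again the lowest HOXB4 array. The difference was 1.35 ± 0.28 (SE, n = 3 per group), with a 95% interval of 0.74 to 1.95 and an adjusted p of 0.00746 in limma. When the model was fitted on these 6 arrays alone, the same difference had an adjusted p of 0.0734 and was not called. At 12 weeks the GFP arrays read 9.80, 9.83 and 9.85 and the HOXB4 arrays 10.44, 10.31 and 10.64, and at 6 weeks the HOXB4 arrays read 9.69, 10.34 and 10.51. The second Gata2 probe set was also called higher at 20 weeks, by 1.04 ± 0.23 (adjusted p 0.0104 in limma over 28898 probe sets).

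Runx1 moved less but with a small spread. Its log2 signal at 20 weeks was 8.94, 8.97 and 9.16 with GFP and 9.46, 9.61 and 9.73 with HOXB4, so that the groups were separate. The difference was 0.58 ± 0.10 (SE, n = 3 per group; 95% interval 0.36 to 0.79), with an adjusted p of 0.00197 in limma. The other Runx1 probe sets did not share the call. Their differences at 20 weeks were 0.36, 0.33, 0.28, 0.21 and -0.25, with adjusted p between 0.175 and 0.689 over all probe sets, and with the mean of the 6 probe sets the Runx1 difference was 0.25 (adjusted p 0.109 in limma). The Runx1 call therefore rests on 1 probe set of 6.

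Erg, an ETS factor needed for stem cell self-renewal, had log2 signals at 20 weeks of 9.11, 9.19 and 9.11 with GFP and 10.29, 9.86 and 10.16 with HOXB4. The groups did not overlap. The difference on the tested probe set was 0.96 ± 0.31 (SE, n = 3 per group) with an adjusted p of 0.0670 in limma, whereas the other Erg probe set was called higher by 0.93 ± 0.16 (adjusted p 0.0018 over all probe sets). The model takes 1 spread for all groups, and for the tested probe set that spread includes 6 weeks with HOXB4, where Erg read 10.63, 10.16 and 8.86. The low array there was replicate 3, which was also the low one on the other Erg probe set, at 8.85 beside 9.48 and 9.49. The same array had the lowest mean of the B cell markers, 5.65 beside 7.02 and 7.56, and of the neutrophil markers, 5.18 beside 6.65 and 6.61, and their part in its Erg signal was not tested. Without that array the Erg difference at 20 weeks was called (adjusted p 0.00109 in limma). Counted by probe set, 5 of the 15 were called higher at 20 weeks and none lower, where 8.33% of probe sets with 1 symbol were called.

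Lmo2, Lyl1 and Fli1 gave smaller differences at 20 weeks. Lmo2, the bridging protein, differed by -0.02 ± 0.17, with a 95% interval of -0.39 to 0.34. Fli1, an ETS factor of stem cells and megakaryocytes, differed by -0.01 ± 0.14, with an interval of -0.30 to 0.28. Differences within those intervals, in either direction, could have been missed. Lyl1, the close relative of Tal1, was 0.23 ± 0.12 lower (adjusted p 0.289 in limma) with all HOXB4 arrays, 8.76, 8.72 and 8.61, just under all GFP arrays, 8.99, 9.01 and 8.77. By arrays that did not overlap, Gata2, Runx1, Tal1 and Erg were higher and Lyl1 lower, where 12.9% of all genes were separate and higher and 12.5% separate and lower.

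**Figure D1:**
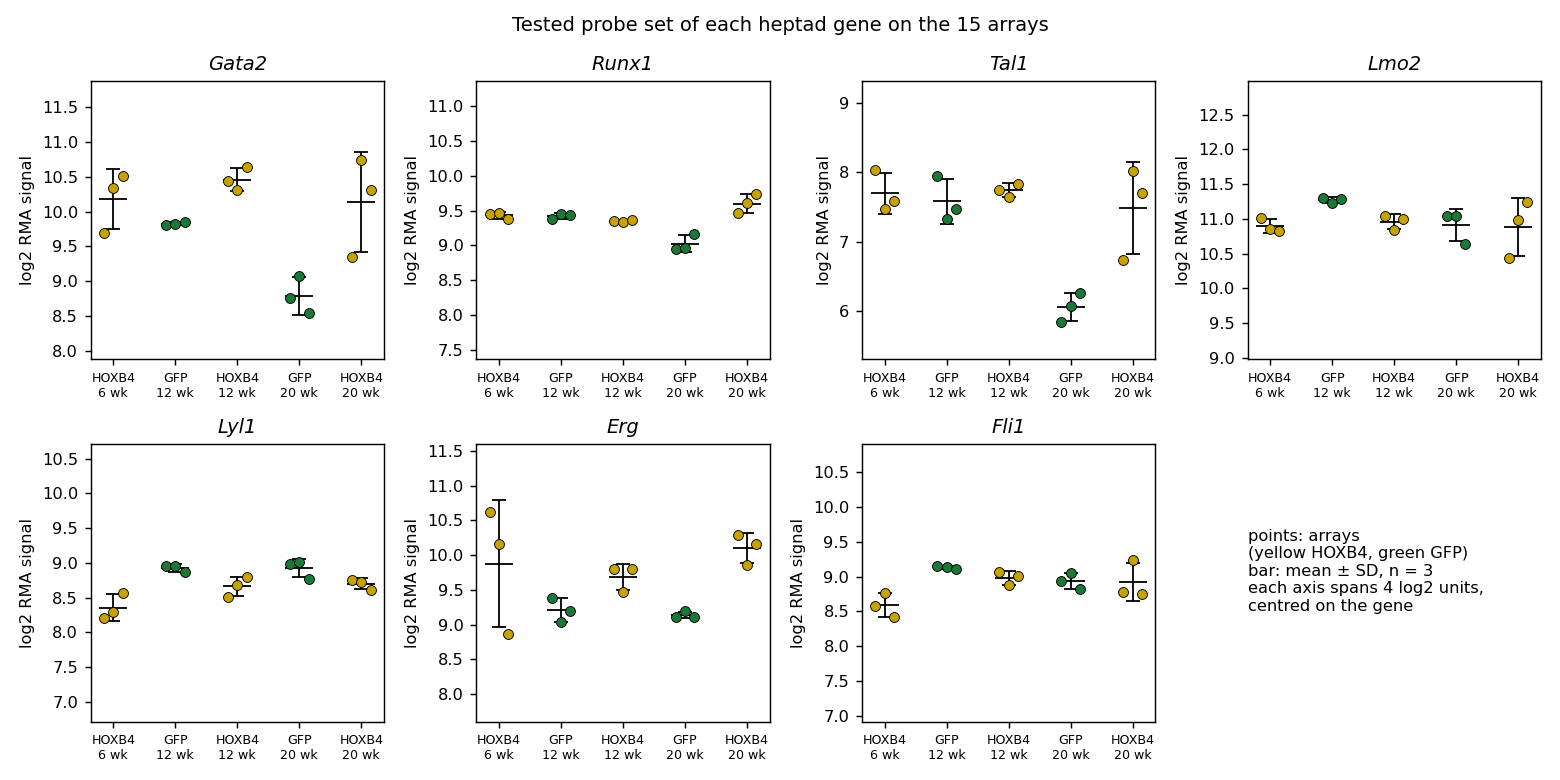
Log2 signal of the tested probe set of each heptad gene on all 15 arrays, by group, with each point an array and bars for the group mean ± SD (n = 3). The 3 GFP arrays at 20 weeks lie lowest for Tal1, between 5.85 and 6.26, and for Gata2, between 8.54 and 9.07.

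At 12 weeks no member was called, where 4.02% of all genes were, 1.82% higher and 2.2% lower. Unadjusted p was under 0.05 for 2 members, Gata2 and Lyl1. Gata2 differed by 0.63 ± 0.28 (adjusted p 0.235 in limma) and Erg by 0.48 ± 0.31 (adjusted p 0.420), both with every HOXB4 array above every GFP array. Lyl1 differed by -0.26 ± 0.12 (adjusted p 0.239), Lmo2 by -0.32 ± 0.17 (0.330), Fli1 by -0.14 ± 0.14 (0.623) and Runx1 by -0.07 ± 0.10 (0.762), all with every HOXB4 array below every GFP array on the tested probe sets. The second Fli1 probe set overlapped, with a difference of -0.03 ± 0.32, and the other Runx1 probe sets ran from -0.14 to 0.13. Tal1 differed by 0.16 ± 0.26 (0.797) and overlapped. Of all genes 14.4% were separate and higher and 20.5% separate and lower, and the median difference was -0.07 over the members and -0.02 over all genes. Fitted on the 6 arrays at 12 weeks alone, Gata2 and Erg were called higher, with adjusted p of 0.00411 and 0.0310 in limma, in a fit that called 2593 of all 17097 genes.

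The mean of both times gave 4 members called higher, Gata2 by 0.99 ± 0.20 (adjusted p 0.00406 in limma), Tal1 by 0.79 ± 0.19 (0.0104), Erg by 0.72 ± 0.22 (0.0360) and Runx1 by 0.25 ± 0.07 (0.0265), where 15.4% of all genes were called and 6.19% were called higher. Lyl1 missed the threshold at -0.24 ± 0.08 (0.0635), and Lmo2 and Fli1 had adjusted p of 0.373 and 0.638. None of the other Runx1 probe sets was called, with differences from -0.20 to 0.22. With the mean of its 6 probe sets the Runx1 difference was 0.12 (adjusted p 0.221 in limma). The other Erg probe set was called higher, by 0.66 ± 0.11 (adjusted p 0.00126 in limma over all probe sets). Of 24 alternatives, 14 called Runx1 and 13 called Erg. The count ranged from 2 to 5 when 1 array was left out. It was 2, Gata2 and Tal1, without replicate 1 or 3 of either group at 12 weeks, replicate 1 or 2 of GFP at 20 weeks, or replicate 3 of HOXB4 at 20 weeks, and centring each array on its median left Gata2 and Tal1 called higher and called Lyl1 lower, at -0.29 (adjusted p 0.0270). Whether the HOXB4 difference itself changed between 12 and 20 weeks was tested as an interaction, which called 0 of 7 members in limma where 0.509% of all genes were called, with 2 at an unadjusted p under 0.05. The Runx1 difference was 0.65 ± 0.14 larger at 20 weeks (adjusted p 0.0632), or 0.26 larger when its 6 probe sets were averaged (0.539), that of Tal1 1.27 ± 0.37 larger (0.187) and that of Gata2 0.71 ± 0.40 larger (0.618). With array weights, which let noisy arrays count less, Runx1 and Tal1 were called in this test (adjusted p 0.00732 and 0.0286), where 563 of all 17097 genes were. They were also called without replicate 1 of HOXB4 at 20 weeks, and Runx1 alone without replicate 3 of GFP at 20 weeks.

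**Figure D2:**
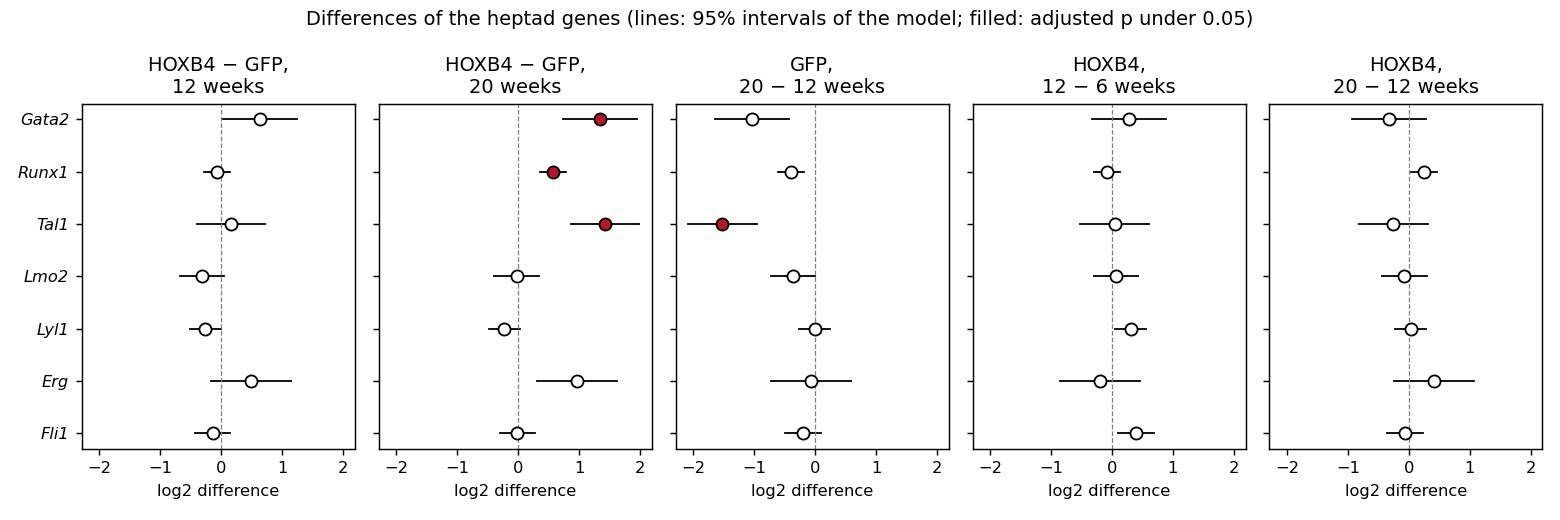
Log2 difference of each heptad gene between HOXB4 and GFP at 12 and at 20 weeks, between GFP at 20 and 12 weeks, and between HOXB4 at 12 and 6 and at 20 and 12 weeks, with 95% intervals of the limma model and called genes filled. Tal1, Gata2 and Runx1 stand at 1.42, 1.35 and 0.58 at 20 weeks, and Lmo2 and Fli1 stand near 0.

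Among GFP cells, Tal1 was 2.87-fold lower at 20 than at 12 weeks, a difference of -1.52 ± 0.26 (adjusted p 0.00625 in limma). It was the 1 member of 7 called, where 2.37% of all genes were called and 1.14% were called lower. Runx1 differed by -0.39 ± 0.10 (0.0548) and Gata2 by -1.04 ± 0.28 (0.0761), both short of the threshold although their arrays were separate. Lmo2 differed by -0.36 (0.379), Fli1 by -0.20 (0.633), Erg by -0.07 (0.966) and Lyl1 by less than 0.01. The other Erg probe set was lower by 0.39 ± 0.16 (adjusted p 0.276 in limma over all probe sets). Its arrays were separate, at 8.87, 9.02 and 8.86 at 20 weeks and 9.48, 9.24 and 9.22 at 12 weeks. On the tested probe sets the arrays of Gata2, Runx1, Tal1, Lmo2 and Fli1 were separate and lower at 20 weeks, where 14.1% of all genes were. These values use the same GFP arrays at 20 weeks as the HOXB4 comparison at that time, so neither supports the other. With array weights Gata2 and Runx1 were called lower too (adjusted p 0.00267 and 0.00162) in a fit that called 1892 genes, as they were without replicate 1 of HOXB4 at 20 weeks. Of the pair, Gata2 alone was added without replicate 1 of HOXB4 at 6 weeks or replicate 2 of HOXB4 at 20 weeks, and Runx1 alone without replicate 3 of HOXB4 at 6 weeks or of either group at 20 weeks.

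Within the HOXB4 cells, no member was called between any pair of times in limma, on any of its probe sets. The ranges below are those of the tested probe sets. At 12 against 6 weeks 1.57% of all genes were called, and the members ranged from -0.19 for Erg to 0.40 for Fli1 (adjusted p 0.145 for Fli1), with 2 at an unadjusted p under 0.05. The other Erg probe set went the other way, by 0.43 ± 0.16 (adjusted p 0.166 in limma over all probe sets). The other Runx1 probe sets ran from -0.86 to 0.63. At 20 against 12 weeks 0.252% were called, and the members ranged from -0.33 for Gata2 to 0.41 for Erg, with 1 at an unadjusted p under 0.05. At 20 against 6 weeks 4.66% were called, and the members ranged from -0.21 for Tal1 to 0.34 for Lyl1, with 2 at an unadjusted p under 0.05. Here the other Erg probe set differed by 0.57 ± 0.16 (adjusted p 0.056 in limma over all probe sets).

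Set in order of their group means, the 7 genes fell into different patterns. Tal1 and Gata2 spanned 1.68 and 1.67 log2 units over the 5 groups, wider than 97.9% of all genes for each, and in both the only neighbours in the order whose arrays did not overlap were GFP at 20 weeks and the group above it. Tal1 was highest in HOXB4 at 12 weeks, at 7.74 ± 0.10 (SD, n = 3), followed by HOXB4 at 6 weeks, GFP at 12 weeks and HOXB4 at 20 weeks, and fell to 6.06 ± 0.21 in GFP at 20 weeks. Gata2 ran from 10.46 ± 0.17 in HOXB4 at 12 weeks through HOXB4 at 6 weeks, HOXB4 at 20 weeks and GFP at 12 weeks to 8.79 ± 0.27 in GFP at 20 weeks.

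Erg spanned 0.96, with the 3 HOXB4 groups, led by 20 weeks at 10.10 ± 0.22, above both GFP groups, and the only separate neighbours were HOXB4 and GFP at 12 weeks. On the other Erg probe set HOXB4 at 6 weeks, 9.28 ± 0.37, lay just under GFP at 12 weeks, 9.31 ± 0.14, so that the order of the 3 HOXB4 groups above both GFP groups holds on 1 of the 2 probe sets. On the tested probe set its HOXB4 mean at 6 weeks, 9.88 ± 0.92, carried the spread of the low array. Runx1 spanned 0.58 and ran from HOXB4 at 20 weeks, 9.60 ± 0.14, through HOXB4 at 6 weeks, GFP at 12 weeks and HOXB4 at 12 weeks to GFP at 20 weeks, 9.02 ± 0.12, with HOXB4 at 6 weeks and GFP at 12 weeks the only neighbours to overlap. This order is that of the tested Runx1 probe set alone, and on each of the others a group other than HOXB4 at 20 weeks was highest. On the probe set with a difference of -0.25 at 20 weeks, GFP at 12 weeks was highest, 7.83 ± 0.14, and HOXB4 at 20 weeks lay at 7.30 ± 0.45.

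Lyl1 ran the other way from Erg. Both GFP groups, 8.93 ± 0.05 at 12 and 8.92 ± 0.13 at 20 weeks, lay above HOXB4 at 20, 12 and 6 weeks, the last at 8.35 ± 0.19, and the GFP and HOXB4 groups at 20 weeks were the only neighbours whose arrays were separate. Fli1 spanned 0.54, from 9.13 ± 0.02 in GFP at 12 weeks through HOXB4 at 12 weeks, GFP at 20 weeks and HOXB4 at 20 weeks to 8.59 ± 0.17 in HOXB4 at 6 weeks. Lmo2 spanned 0.39, about the middle of all genes (48.8% had a smaller span), with GFP at 12 weeks at 11.27 ± 0.04 above the other groups, which lay between 10.88 and 10.96. For both Fli1 and Lmo2, GFP at 12 weeks and HOXB4 at 12 weeks were the only separate neighbours, though on the second Fli1 probe set these groups overlapped.

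**Figure D3:**
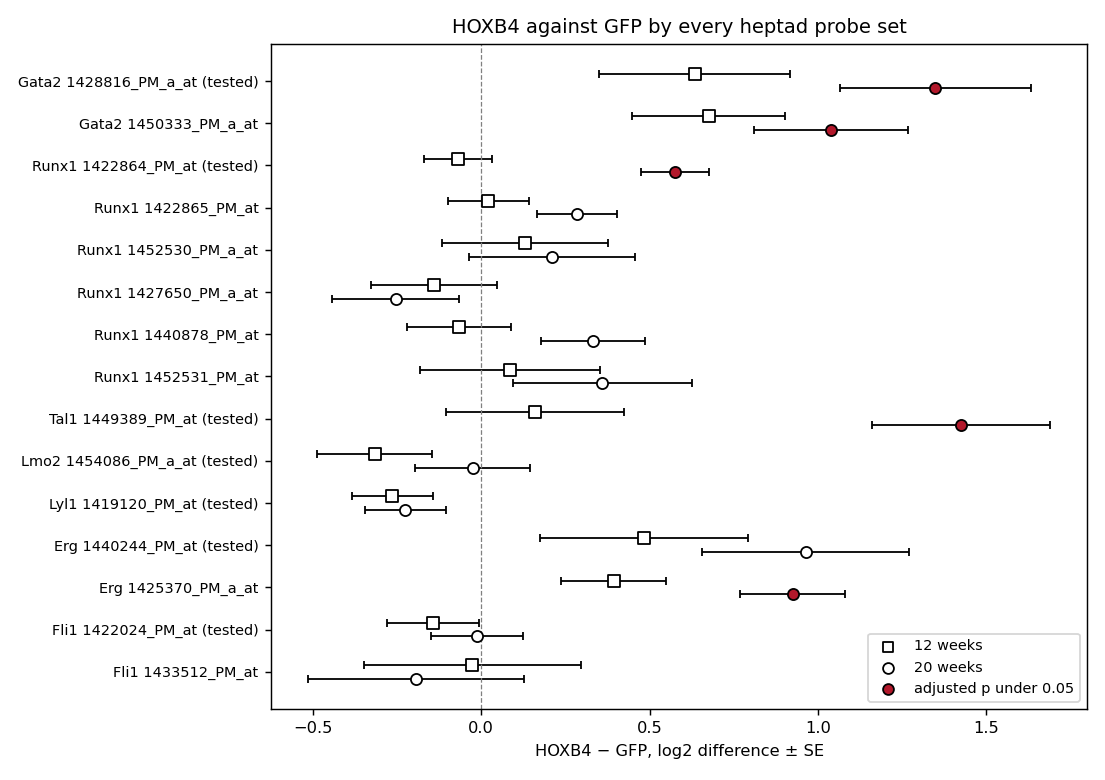
Log2 difference ± SE between HOXB4 and GFP at 12 weeks (squares) and 20 weeks (circles) for all 15 probe sets of the heptad genes, with called probe sets filled and the tested probe set of each gene marked. At 20 weeks both Gata2 probe sets lie above 1, the Erg probe sets at 0.96 and 0.93, and the 6 Runx1 probe sets between -0.25 and 0.58.

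The proteins that work with the heptad were read from 22 measured partners and cofactors. At 20 weeks 4 were called higher with HOXB4 and 1 lower, 17 were not called, and the median difference was 0.16 beside 0.02 over all genes. Over all genes 3.77% were called higher and 5.18% lower. Higher were Zfpm1, the GATA cofactor FOG-1, by 1.11 ± 0.21 (adjusted p 0.00385 in limma), the E proteins Tcf4 and Tcf3, which pair with Tal1 and Lyl1, by 1.0 ± 0.23 and 0.76 ± 0.21 (0.0139 and 0.0327), and Id3, by 1.24 ± 0.32 (0.0258). Id1 was lower by 0.92 ± 0.17 (0.00306). Its signals, 4.26 to 4.74 with HOXB4 and 5.33 to 5.52 with GFP, lay under or near the array medians of 5.25 to 5.40 and may be near background. Id proteins bind E proteins and keep them from DNA, so the list holds both helpers and inhibitors. Not called were Ldb1, which binds Lmo2, at 0.16 (0.860), Cbfb, the partner of Runx1, at 0.28 (0.271), the E protein Tcf12 at 0.40 (0.259), the corepressor Cbfa2t3 at 0.16 (0.493) and Lmo4 at -0.79 (0.0714).

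At 12 weeks Id3 alone of the 22 partners was called, higher by 1.27 ± 0.32 (adjusted p 0.0408 in limma), where 4.02% of all genes were called. In GFP cells at 20 against 12 weeks Zfpm1 was lower by 1.05 ± 0.21 (0.0151) and Id1 higher by 0.79 ± 0.17 (0.0229), where 2.37% of all genes were called. Zfpm1 thus had its lowest group mean where Tal1 and Gata2 had theirs, 7.13 ± 0.28 (SD, n = 3) in GFP at 20 weeks, beside 8.02 to 8.24 in the other groups.

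Of 22 measured paralogs, the relatives of the heptad, 2 were called higher and 2 lower at 20 weeks, with a median difference of 0.18. Over all genes 3.77% were called higher and 5.18% lower. Higher were the ETS factors Ets1, by 1.13 ± 0.32 (adjusted p 0.0404 in limma), and Elk4, by 0.94 ± 0.24 (0.0215). Lower were Spi1, the ETS factor PU.1 of myeloid and B cells, by 1.19 ± 0.26 (0.00965), and Lmo1, the relative of Lmo2, by 1.17 ± 0.19 (0.00137). Gata1 at 0.57 (0.245), Gata3 at 0.47 (0.532), Runx3 at 0.42 (0.276) and Etv6 at 0.15 (0.568) were not called, and Runx2 is not analysed here. At 12 weeks Ets1 alone was called, higher by 2.07 ± 0.32 (0.00407), where 4.02% of all genes were called. In that comparison 8 of 11 B cell markers were called higher as well, their mean log2 signal running from 5.55 to 5.68 with GFP and from 7.57 to 7.96 with HOXB4, and their part in the Ets1 difference was not tested.

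Genes taken as targets or companions of the heptad in stem cells gave 6 of 25 called higher and 3 lower at 20 weeks, with a median difference of 0.27. Over all genes 3.77% were called higher and 5.18% lower. Higher were Itga2b, the integrin CD41 of megakaryocytes and early stem cells, by 1.66 ± 0.23 (adjusted p 0.000309 in limma), Gfi1b, a repressor of the erythroid and megakaryocytic line, by 1.53 ± 0.23 (0.000762), Angpt1, a ligand of Tek, by 1.28 ± 0.22 (0.00194), Tek itself by 1.78 ± 0.51 (0.0403), Ikzf1 and Eng. Lower were the myeloid receptor Csf1r, by 1.87 ± 0.23 (0.000142), the cell cycle inhibitor Cdkn1c, by 0.98 ± 0.12 (0.000136), and Gfi1, a repressor important in granulocytes, by 1.62 ± 0.26 (0.00101). Cdkn1c read 3.74 to 3.98 with HOXB4 and 4.67 to 4.95 with GFP, under the array medians of 5.25 to 5.40, and may be near background. Hhex at 0.32 (0.372), Meis1 at 0.92 (0.0975) and Kit at -0.30 (0.180) were not called. At 12 weeks none was higher and 3 were lower, Cd34 by 0.75 ± 0.13 (0.00731), Kit by 0.63 ± 0.13 (0.0140) and Gfi1 by 1.2 ± 0.26 (0.0194), where 4.02% of all genes were called. In GFP cells at 20 against 12 weeks 5 were lower, Itga2b, Cd34, Angpt1, Gfi1b and Tie1, and 2 higher, Cdkn1c and Csf1r, where 2.37% of all genes were called.

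**Figure D4:**
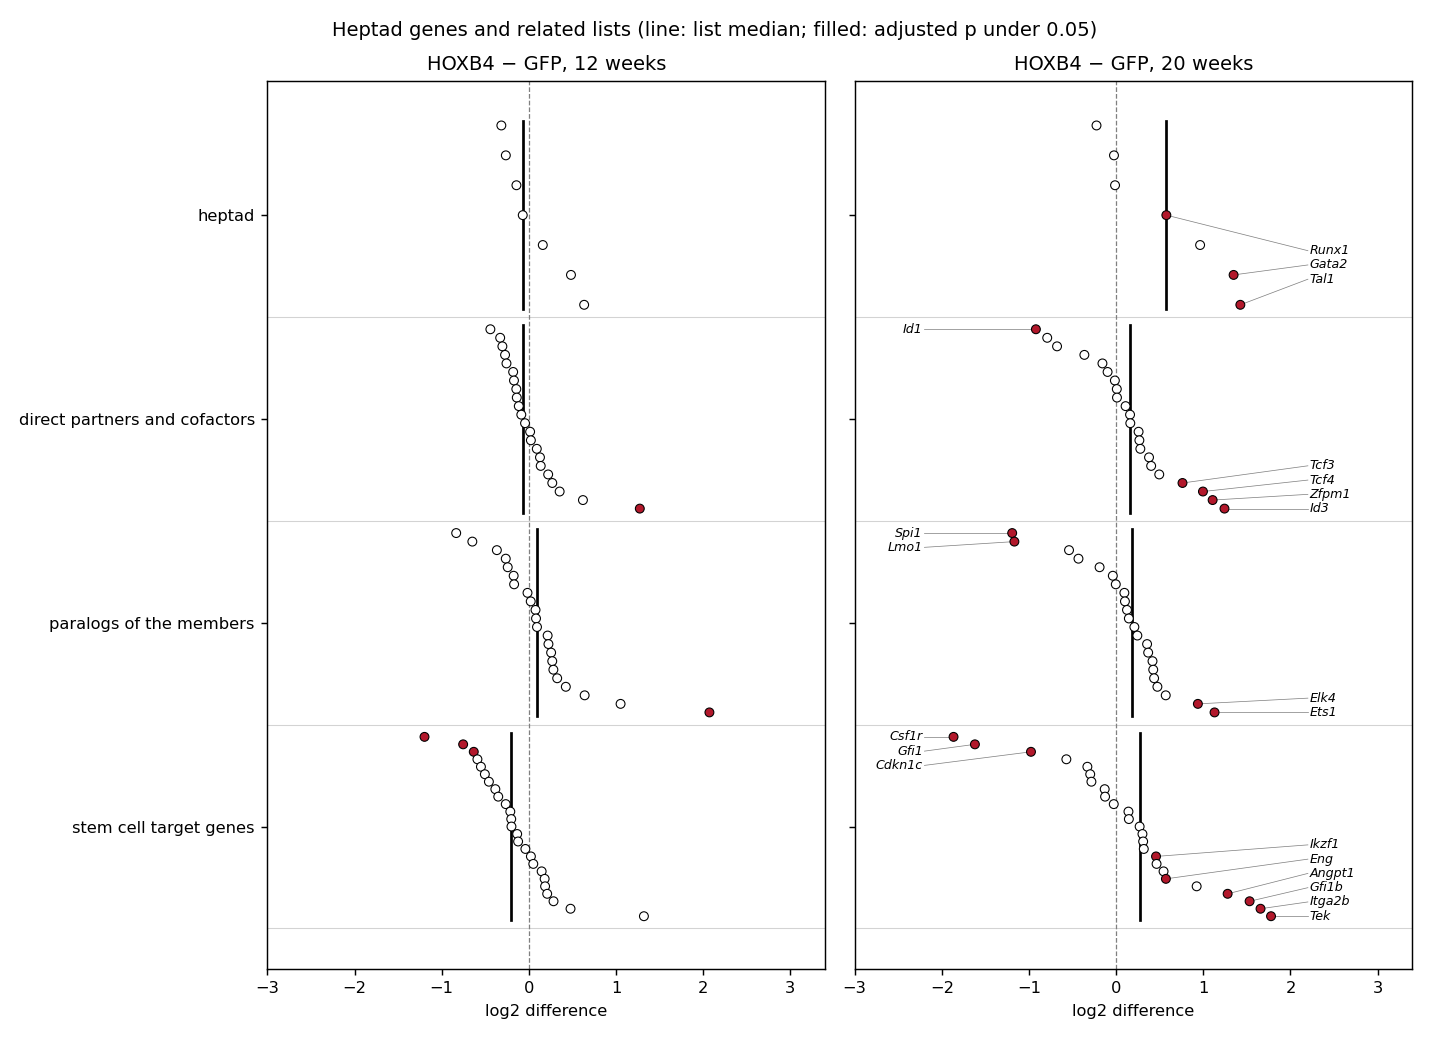
Log2 difference between HOXB4 and GFP at 12 and at 20 weeks for the heptad, its partners, its paralogs and its target genes, each point a gene, filled where called, with a bar at the list median. At 20 weeks the heptad median is 0.58, the value of the tested Runx1 probe set, and the other lists hold called genes on both sides of 0.

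Markers of other cells moved in the comparison that called Tal1, Gata2 and Runx1, where 3.77% of all genes were called higher and 5.18% lower. At 20 weeks 10 of 12 neutrophil markers were called lower with HOXB4, and their mean log2 signal ran from 8.65 to 8.70 with GFP and from 6.14 to 6.96 with HOXB4. Of 10 monocyte markers 6 were lower, the means running from 6.92 to 7.03 with GFP and from 5.61 to 5.71 with HOXB4. Of 12 megakaryocyte markers 6 were higher, Pf4 the most among them at 3.56 ± 0.43, with means of 5.82 to 6.00 with GFP and 6.54 to 7.38 with HOXB4. Of 10 mast cell and basophil markers Ms4a2 and Cpa3 were higher, by 3.45 ± 0.41 and 2.01 ± 0.34, and Mcpt8 and Hdc lower, and of 14 endothelial markers Tek and Eng were higher. The lists share genes, and Tek, Eng, the megakaryocyte marker Itga2b and the monocyte marker Csf1r were also counted among the target genes.

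Of the 6 measured LSK markers Flt3 and Slamf1 were higher at 20 weeks, and the mean over the 6 ran from 7.56 to 7.81 with GFP and from 7.86 to 8.57 with HOXB4. In that comparison 8.95% of all genes were called. Among 11 erythroid markers Car2 alone was called, higher, and of 11 T and natural killer cell markers none was called. Of 11 B cell markers Cd72 and Vpreb3 were called higher, with a median difference of 1.68 and means of 6.21 to 7.90 with GFP and 7.84 to 8.51 with HOXB4. The part of these markers in the Tal1, Gata2 and Runx1 differences was not tested, and since each array pools a sorted population, fewer cells of a type and less RNA per cell cannot be told apart. Log2 signals from RMA have no 0, so these arrays do not show a marker to be absent.

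On the tested probe sets, replicate 1 of HOXB4 at 20 weeks had the lowest Tal1, Gata2, Runx1 and Lmo2 of its group. It had the highest Erg, at 10.29 beside 9.86 and 10.16, and the highest Lyl1, at 8.76 beside 8.72 and 8.61. It was also the lowest in the mean of the LSK, megakaryocyte, mast cell and endothelial markers and the highest in that of the neutrophil, at 6.96 beside 6.14 and 6.60, B cell, at 8.51 beside 8.04 and 7.84, and erythroid markers. Replicate 2 had the highest Gata2, Tal1 and Fli1 and the highest mean of the LSK, megakaryocyte, mast cell and endothelial lists, and the lowest of the neutrophil list. Its Erg, at 9.86 on the tested probe set, was the lowest of the group. Without replicate 1 the difference at 20 weeks was 1.80 for Tal1 and 1.74 for Gata2, and without replicate 2 it was 1.16 and 1.04, called in each case in limma. In GFP cells at 20 against 12 weeks, where Tal1 was lower and 2.37% of all genes were called, 7 of 12 neutrophil and 5 of 10 monocyte markers were called higher. Of 12 megakaryocyte markers 4 were lower, and the part of these markers was likewise not tested.

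**Figure D5:**
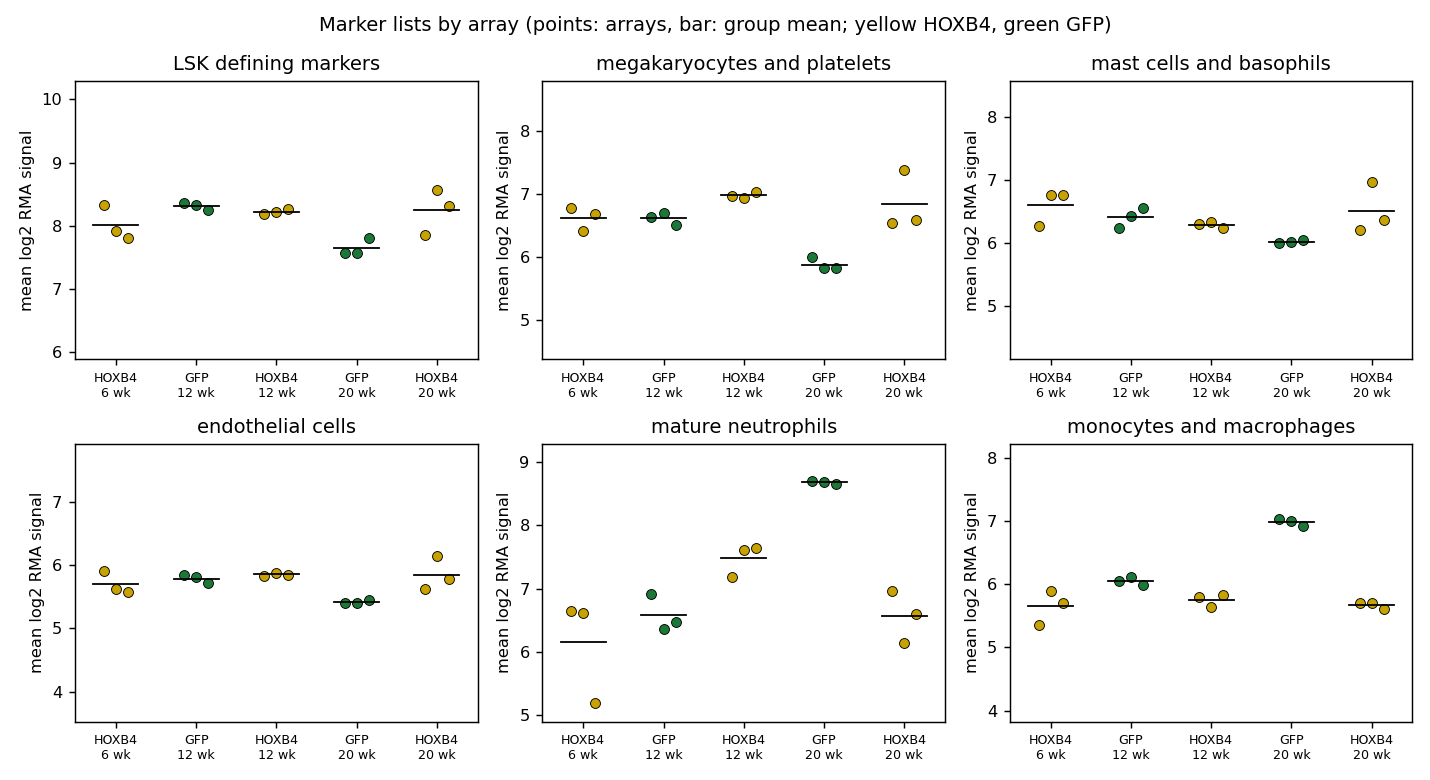
Mean log2 signal of 6 marker lists on each of the 15 arrays, by group, with each point an array and a bar at the group mean. GFP at 20 weeks is highest for neutrophil markers, at 8.65 to 8.70, and lowest for megakaryocyte markers, at 5.82 to 6.00.

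The genes whose signal followed each member most closely over the 15 arrays were taken by Pearson's r among 1275 genes whose group means spanned at least 1 log2 unit. Genes of smaller span were not considered. Runx1, Lmo2, Lyl1, Erg and Fli1 spanned less themselves, so they could not appear among the closest genes of another member. These r values describe arrays that share their groups and have no test. Tal1 was followed most closely by Itga2b (r = 0.943), Csgalnact1 (0.934), a chondroitin sulfate enzyme, and Dmwd (0.919). Gata2 was followed by the signalling adaptor Dapp1 (0.937), the adenylyl cyclase Adcy6 (0.933) and Samd14 (0.924), which promotes Kit signalling. At 20 weeks all 6 of these were called higher with HOXB4, Itga2b by 1.66, Csgalnact1 by 1.64, Dmwd by 1.26, Dapp1 by 0.75, Adcy6 by 1.31 and Samd14 by 1.41, a direction that the choice by likeness favours.

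Runx1 was followed by Soga1 (0.914), the RAS regulator Rasal3 (0.880) and Cobll1 (0.875). Erg was followed by Rag2 (0.832), a subunit of the recombinase of lymphocytes, the lipid-presenting Cd1d1 (0.822) and the noncoding RNA Lockd (0.820). Lyl1 was followed by the G protein subunit Gna15 (0.918), the signal peptide peptidase H13 (0.908) and Nudt8 (0.90). Fli1 was followed by Hsd17b10 (0.855), Galk2 (0.836) and the splicing factor Slu7 (0.833). Lmo2 had the lowest leading values, with Myct1 (0.805), Procr (0.765), the protein C receptor that marks stem cells, and Cdk18 (0.759). No 2 members shared a gene among their closest 3.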

How the data were processed

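RNA of sorted LSK cells (20 ng) was amplified and hybridised to Affymetrix arrays, per the labels' protocols. The deposited values are log2 signals. The authors made them with Partek 6.5 (RMA), as recorded per the submitters' processing notes. RMA quantile-normalises arrays, so a shift shared by all genes cannot be seen. No detection calls were used, so a low value may be background, and the number of arrays limits the precision.

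Of 45141 probe sets 28898 had 1 symbol and were named through the platform annotation, 551 had several and 15692 were not listed. A total of 28689 were matched by gene identifier to the GRCm38.p6 table and took its symbol, whether or not this changed it, and 209 kept the annotation's symbol. The brightest probe set of each of 17097 genes was tested. All 15 arrays entered 1 limma 3.58.1 fit (R 4.3.3, lmFit and eBayes, a mean per group, 10 residual and 4.55 prior degrees of freedom) with 8 two-sided comparisons, and the probe sets were fitted likewise. The fit was tested on simulated data. An exact permutation test of 3 arrays against 3 cannot go below 0.1 and was not used.

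Same-numbered arrays of different groups correlated in their deviations from the group means at -0.167 to 0.115 over 30 pairs, 2 of them over 0.1, so the numbers were not taken as pairs. The members, the 13 gene lists and the motifs were chosen with earlier results of these data known. Named were all members and their probe sets, fixed partners, paralogs and targets, up to 5 called genes of a list with the smallest p, and the 3 closest genes per member. The alternatives were fitting the compared groups alone, dropping the dimmest 1 in 3 genes, averaging the probe sets of a gene, further quantile normalisation, median centring, trended and robust moderation, all probe sets tested, array weights, a replicate block and leaving out each array.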

Additional observations from a re-analysis of the deposited data

Results flagged for a closer look

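The difference between HOXB4 and GFP changed from 12 to 20 weeks, by the interaction term of the limma model, for 6 marker genes of other cell types that are set beside the heptad results. The change was -3.89 for Ltf (adjusted p 0.00250), -5.55 for Lcn2 (0.00995), -4.66 for Camp (0.0122) and -3.79 for Cd177 (0.00250), all genes of neutrophil granules or surface. It was -2.42 for Lyz2, the lysozyme of myeloid cells (0.000176), and -3.96 for Ighm, the immunoglobulin heavy chain of B cells (0.00255). No heptad gene was called in that test, where 0.509% of all genes were called.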

How the results depend on the processing

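The 7 member differences in 8 comparisons and the 8 counts of called members were recomputed under 9 other settings and without each of the 15 arrays in turn. The Tal1 call at 20 weeks and its call between GFP at 20 and 12 weeks held in 24 of 24 of these. The Gata2 and Runx1 calls at 20 weeks held in 23 of 24 each, and Erg was called at 20 weeks in 7 of 24. Runx1 lost its call where its probe sets were averaged, at 0.25 (adjusted p 0.109 in limma). The other settings read Runx1 from its tested probe set alone, so its tally cannot speak for its other probe sets. Leaving out an array of a group not compared could alter the spread but not the difference, so such settings were no separate check of its size. The count at 20 weeks ran from 3 to 4, though not always of the same genes. With only the compared groups fitted, Gata2 was lost (adjusted p 0.0734 in limma) and Erg gained (0.0116). With averaged probe sets Runx1 was lost and Erg gained (0.0140). With the replicate block the count stayed at 3, and the block changed no other call of a member. At 12 weeks 0 members became 2 when only the compared groups were fitted and 1 with array weights. The interaction count of 0 became 2 with array weights and ran from 0 to 2 over the left-out arrays. Between GFP at 20 and 12 weeks the count of 1 became 2 with only those groups and 3 with array weights, and ran from 1 to 3 over the left-out arrays. For the mean of both times the count of 4 ran from 2 to 5. Genes called in all ran from 214 to 2791 at 12 weeks, from 715 to 2408 at 20 weeks, from 1787 to 4130 for the mean, from 38 to 563 for the interaction and from 192 to 1892 between the GFP times (688, 1530, 2625, 87 and 406 as reported). Within HOXB4 they ran from 0 to 923 at 12 against 6, from 1 to 108 at 20 against 12 and from 1 to 1165 at 20 against 6 weeks (268, 43 and 796).

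Differences between -0.33 and 0.25 as reported, which were not called either way, changed sign, and the cause was not tested. With quantile normalisation this held for Runx1 at 12 weeks (0.010), Lmo2 and Fli1 at 20 weeks (0.043 and 0.044), Lyl1 between the GFP times (0.023), and Tal1 and Lmo2 at HOXB4 12 against 6 weeks (-0.048 and -0.012). With array weights it held for Fli1 at 20 weeks (0.000438), the Lyl1 interaction (-0.025) and Lyl1 between the GFP times (0.042). With the mean of probe sets it held for the Fli1 interaction (-0.018), Runx1 and Erg at HOXB4 12 against 6 weeks (0.083 and 0.12) and Runx1 at 20 against 12 weeks (-0.019), and with median centring for Lmo2 at 20 against 6 weeks (0.023). Over the left-out arrays Lmo2 ran from -0.20 to 0.20 and Fli1 from -0.17 to 0.072 at 20 weeks, the Lyl1 interaction from -0.038 to 0.10 and the Fli1 interaction from -0.027 to 0.21. Between the GFP times Lyl1 ran from -0.048 to 0.073 and Erg from -0.15 to 0.018. At HOXB4 12 against 6 weeks Tal1 ran from -0.068 to 0.21 and Erg from -0.70 to 0.18. At 20 against 12 weeks Gata2 ran from -0.63 to 0.069, Tal1 from -0.52 to 0.12, Lmo2 from -0.25 to 0.15, Lyl1 from -0.039 to 0.098 and Fli1 from -0.22 to 0.019. At 20 against 6 weeks Gata2 ran from -0.35 to 0.35, Tal1 from -0.47 to 0.16, Lmo2 from -0.19 to 0.21 and Erg from -0.29 to 0.59.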
